A study of Drosophila melanogaster with 18 samples.

Results

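Cells depleted of the methyltransferase pair Ime4 and dMettl14 were compared directly with cells depleted of Spenito (Nito), 3 libraries against 3, which are 6 of the 18 libraries of the series. Libraries were picked by their titles, and the comparison itself was chosen with earlier results of these data known. Every gene that passed a filter on low counts was compared, 8146 of 17559 gene IDs. All cells were S2R+, an adherent Drosophila line derived from embryos with features of blood cells. The first group, labelled Ime4_dMettl14, received 10 µg of double-stranded RNA (dsRNA) aimed at both Ime4 and dMettl14, which the annotation calls Mettl3 and Mettl14. The second group, Nito, received the same amount aimed at Nito. A control group of 3 libraries, treated with dsRNA against the bacterial gene LacZ, takes no part in the contrast and is used here to place the differences. Every group had 3 dsRNA treatments over 6 days and cells at the same range of passages. Further groups of the series, with knockdowns of Fl2d, Vir and CG7358, were in the same statistical fit and are not described. No group restored a lost target. Changes in other transcripts through loss of the target and through other actions of the dsRNA thus cannot be told apart here. Whether replicate libraries stem from separate cultures is not said in the labels, so the p-values reflect the spread among replicates as deposited, possibly a technical one.

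N6-methyladenosine (m6A) is a methyl mark on adenosines inside messenger RNA. Mettl3 carries the catalytic activity and Mettl14 helps it to bind RNA. They work with further proteins, among them Fl(2)d, Virilizer, Flacc, Hakai and Spenito. In flies the nuclear protein Ythdc1 reads the mark and Ythdf reads it in the cytoplasm, and the pathway is known for its part in splicing of the sex determination gene Sxl. Spenito is a small member of the Spen family of RNA-binding proteins, the fly counterpart of RBM15 and RBM15B in mammals. Besides its place in the m6A complex it is known in flies for a role in Wingless signalling and in Sxl splicing. A direct comparison of the pair with Spenito asks where the transcriptomes of the 2 knockdowns part.

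Library totals were 16284849 to 17858987 counts in Ime4_dMettl14, 16138881 to 18100792 in Nito and 16043011 to 17259281 in LacZ. At least 1 count was found for 10366 to 10663 genes in Ime4_dMettl14 libraries, 11156 to 11312 in Nito libraries and 10534 to 10587 in LacZ libraries. On a principal component analysis of the 6 libraries, 78.3% of the variance lay on the first component, which placed Ime4_dMettl14 at −23.3 to −21.7 and Nito at 21.9 to 23.7. The second component held 6.31%. Of 19 blood cell markers 15 passed the filter. They include srp, the GATA factor of blood cells, and Pxn, peroxidasin, which had 166 ± 5.07 CPM in Ime4_dMettl14, 151 ± 6.40 CPM in Nito and 165 ± 7.01 CPM in LacZ (SD, n = 3 each). The lineage markers lz, gcm, atilla and NimC1 did not pass. Neither did the muscle gene Mhc, the fat body gene Lsp2, the glial gene repo or the neuronal genes nSyb and Syt1. Some markers of other cell types did pass. They were 7 of 15 neuron, 9 of 13 germline and gonad and 5 of 16 muscle and fat body genes.

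Among these groups each targeted transcript was low in its own knockdown alone. Mettl3 (FBgn0039139, chromosome 3R, 24032157 to 24034257) had 3.13, 2.94 and 4.09 CPM (counts scaled to a common library total with TMM factors) in the Ime4_dMettl14 libraries, 36.4, 36.7 and 39.6 CPM in the Nito libraries and 31.7, 32.6 and 32.2 CPM in the LacZ libraries. Mettl14 (FBgn0032016, chromosome 2L, 8308427 to 8309961) had 6.50, 7.63 and 7.12 CPM in Ime4_dMettl14, 53.6, 49.3 and 52.4 CPM in Nito and 50.9, 49.2 and 46.8 CPM in LacZ. nito (FBgn0027548, chromosome 2R, 7962463 to 7969805) had 174, 182 and 159 CPM in Ime4_dMettl14, 41.9, 40.95 and 40.1 CPM in Nito and 161, 165 and 167 CPM in LacZ. With the LacZ mean set to 100%, the Ime4_dMettl14 mean was 10.5% for Mettl3 and 14.5% for Mettl14, and the Nito mean for nito was 24.9%, so the Spenito transcript was lowered less far than the pair. For none of the 3 genes did the 2 knockdowns overlap. Log2 fold changes of Ime4_dMettl14 over Nito, in which a positive value is higher in Ime4_dMettl14, were −3.46 ± 0.08 for Mettl3, −2.87 ± 0.07 for Mettl14 and 2.07 ± 0.04 for nito (SE). These are the largest differences among the m6A genes, and they are the treatments themselves.

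Of the m6A writers that were not targeted, all 4 had less transcript in Ime4_dMettl14 than in Nito. For vir, the gene of the large scaffold Virilizer, the levels were 87.2, 84.5 and 88.3 CPM in Ime4_dMettl14, 110.2, 112 and 111 CPM in Nito and 91.3, 88.4 and 89.3 CPM in LacZ. The Ime4_dMettl14 and LacZ libraries lay close together and the Nito libraries above both (log2 fold change −0.36 ± 0.04, adjusted p = 1.67e-09 by edgeR's quasi-likelihood test). The fl(2)d transcript had 214 ± 5.20 CPM in Ime4_dMettl14, 252 ± 2.80 CPM in Nito and 176 ± 4.59 CPM in LacZ (SD), and here both knockdowns lay above the control, with Nito the higher (−0.24 ± 0.03). Hakai, a RING-type E3 ligase in the complex, had 16.3 ± 1.61 CPM in Ime4_dMettl14, 21.4 ± 1.49 CPM in Nito and 18.3 ± 1.11 CPM in LacZ (−0.39 ± 0.09). Flacc had 43.7 ± 2.12 CPM in Ime4_dMettl14, 53.1 ± 5.24 CPM in Nito and 41.8 ± 2.22 CPM in LacZ, and its difference of −0.28 ± 0.11 was the weakest of the writers (adjusted p = 0.0409 by edgeR). That call was lost without any of the 3 Ime4_dMettl14 libraries (adjusted p between 0.0729 and 0.141) and without Nito replicate 2 (0.167) or 3 (0.0548). Among the readers, Ythdc1 had 255, 259 and 258 CPM in Ime4_dMettl14, 342, 377 and 350.0 CPM in Nito and 275, 266 and 268 CPM in LacZ, with no overlap of the 2 knockdowns (−0.47 ± 0.05, adjusted p = 2.12e-08 by edgeR). Ythdf had 151 ± 2.80 CPM in Ime4_dMettl14, 158 ± 4.06 CPM in Nito and 157 ± 2.70 CPM in LacZ, and its difference did not pass the threshold (−0.06 ± 0.03, adjusted p = 0.0954 by edgeR). It did pass with upper-quartile scaling (0.0314) and with a filter at 5 CPM (0.0401).

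**Figure D1:**
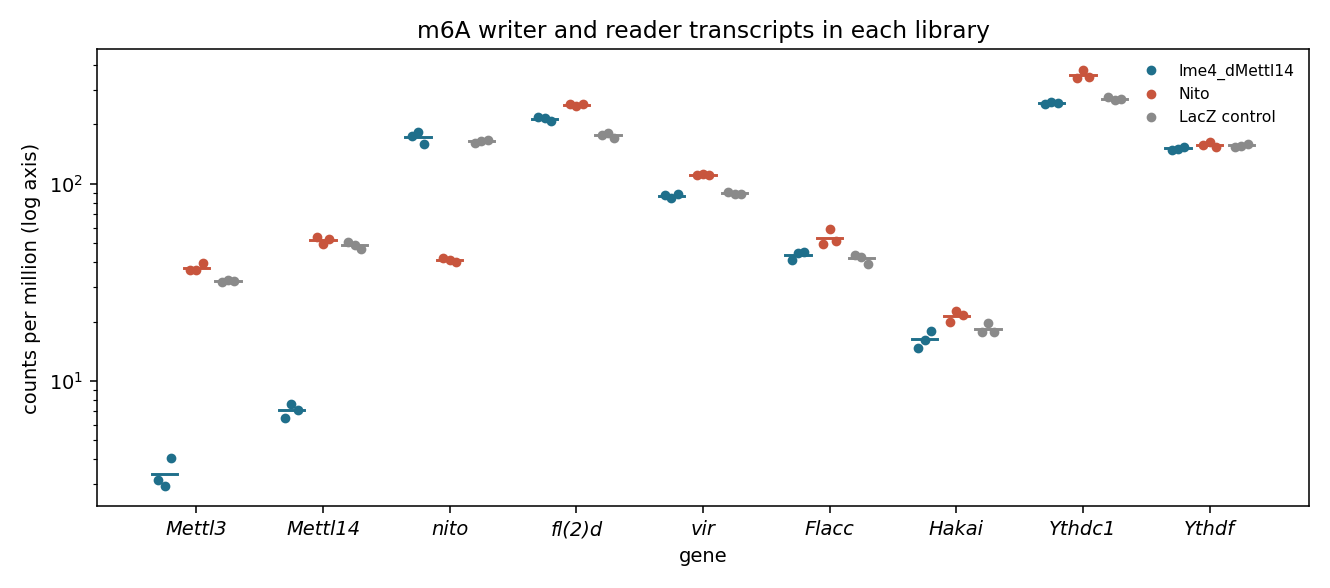
Level of each m6A writer and reader transcript, with genes on the horizontal axis and CPM on a logarithmic vertical axis. Each dot is 1 library and each bar the mean of 3, for Ime4_dMettl14 (left), Nito (middle) and LacZ (right). Mettl3 and Mettl14 sit lowest in Ime4_dMettl14, nito sits lowest in Nito, and the Nito libraries lie above the Ime4_dMettl14 libraries for fl(2)d, vir, Flacc, Hakai and Ythdc1.

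The 2 knockdowns differed at most genes. Of 8146 genes tested, 5084 (62.4%) were called at adjusted p under 0.05. In Ime4_dMettl14, 2533 (31.1%) were higher and 2551 (31.3%) lower. Most differences were small: the median size was 0.31 on the log2 scale for genes higher in Ime4_dMettl14 and 0.32 for genes lower. An estimate over 1.5-fold was found for 1199 called genes (14.7%), 501 higher (6.15%) and 698 lower (8.57%). Over 2-fold there were 195 higher and 350 lower genes, over 4-fold 27 higher and 51 lower, and over 8-fold 0 higher and 11 lower. Much of that excess on the lower side lay in low transcripts. Genes over 1.5-fold had a median level of 16.6 CPM where higher in Ime4_dMettl14 and 2.48 CPM where lower. With only genes above 5 CPM in at least 3 libraries, the split over 1.5-fold was 353 higher and 301 lower, over 2-fold 122 higher and 97 lower, and over 4-fold 14 higher and 18 lower. A low transcript can pass the filter through the knockdown in which it is high. Tested against a 1.5-fold difference itself (edgeR's glmTreat), 278 genes were higher and 288 lower. For 5553 genes (68.2%) the 3 libraries of one knockdown all lay above the 3 of the other, 2781 with Ime4_dMettl14 above (34.1%) and 2772 with Ime4_dMettl14 below (34%).

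**Figure D2:**
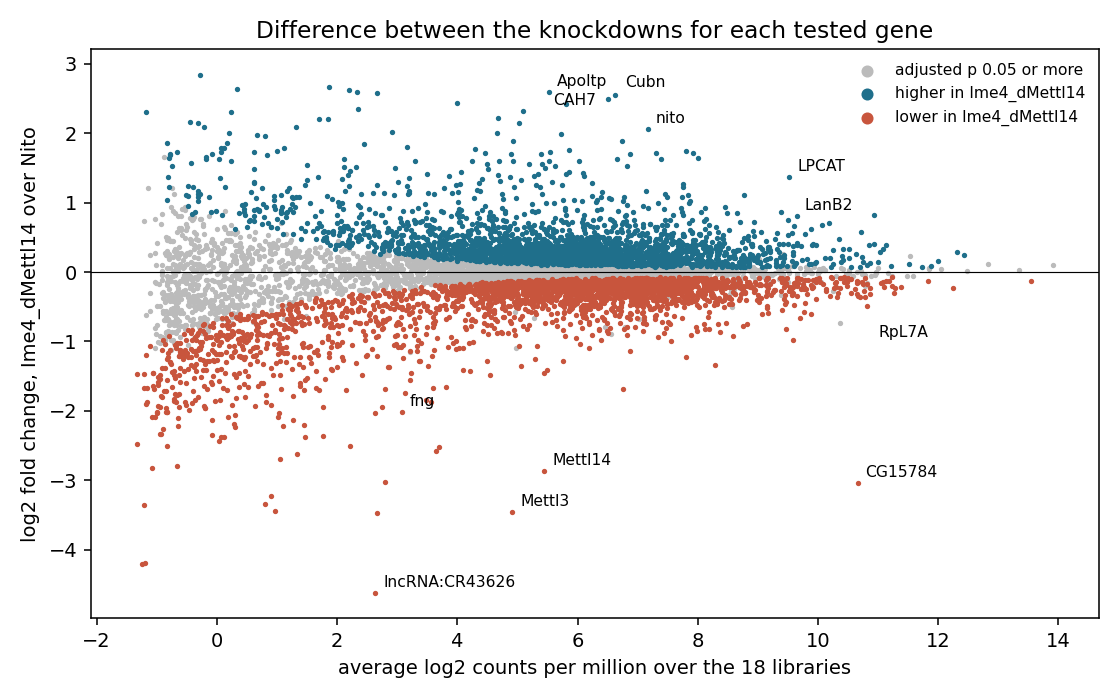
Log2 fold change of Ime4_dMettl14 over Nito (vertical axis) against the average log2 CPM over all 18 libraries (horizontal axis), 1 point for each of 8146 genes. Blue points are called higher and orange points called lower in Ime4_dMettl14, and grey points had an adjusted p of 0.05 or more. The 2533 higher and 2551 lower genes lie around 0 over the whole range of levels, and CG15784 stands far below the other genes of its level.

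Set beside the LacZ libraries, most of the differences lay on the Nito side. Against LacZ 459 genes (5.63%) were called in Ime4_dMettl14, 245 higher (3.01%) and 214 lower (2.63%). In Nito 4948 genes (60.7%) were called against LacZ, 2429 higher (29.8%) and 2519 lower (30.9%). These comparisons share the LacZ libraries. The LacZ mean of each of the 5084 called genes was placed on a scale with the Nito mean at 0 and the Ime4_dMettl14 mean at 1, as a description. It lay within 0.25 of Ime4_dMettl14 for 3031 genes (59.6%), between the knockdowns for 1185 (23.3%), beyond Ime4_dMettl14 for 675 (13.3%), within 0.25 of Nito for 167 (3.29%) and beyond Nito for 26 (0.511%). Among the 1199 genes over 1.5-fold, LacZ was near Ime4_dMettl14 for 853 (71.1%) and near Nito for 19 (1.59%). The 19 hold both targets of the pair.

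After those targets, the gene named from this class is drpr. It encodes Draper, an engulfment receptor for dying cells. drpr (FBgn0027594, chromosome 3L, 1715595 to 1731107) had 103, 97.5 and 111 CPM in Ime4_dMettl14, 52.9, 50.7 and 55.5 CPM in Nito and 63.7, 60.001 and 59.02 CPM in LacZ, so the Ime4_dMettl14 libraries stood apart from both other groups (log2 fold change 0.97 ± 0.05, adjusted p = 4.27e-18 by edgeR). Its exons overlap those of Oseg4 on the same strand. LacZ lay beyond Ime4_dMettl14 for AGO3, an Argonaute of the piRNA pathway, which had 23.4, 24.3 and 26.1 CPM in Ime4_dMettl14, 7.84, 8.13 and 6.63 CPM in Nito and 30.9, 28.6 and 28.3 CPM in LacZ. Both knockdowns were thus below the control, Nito further (1.71 ± 0.10). LacZ lay between the knockdowns for Cip4, an F-BAR protein that shapes membranes, with 208, 198 and 206 CPM in Ime4_dMettl14, 63.7, 60.6 and 61.2 CPM in Nito and 180.3, 162 and 163 CPM in LacZ (1.72 ± 0.04). The same held for Tret1-2, a sugar transporter gene, with 31.7 CPM in Ime4_dMettl14, 10.4 CPM in Nito and 25.5 CPM in LacZ, and mthl2, a methuselah-like receptor gene, with 50.5 CPM in Ime4_dMettl14, 17.2 CPM in Nito and 41.3 CPM in LacZ. In a few genes LacZ lay beyond Nito: TpnC4, a troponin C gene, had 21.3 ± 1.92 CPM in Ime4_dMettl14, 26.1 ± 0.183 CPM in Nito and 27.99 ± 1.26 CPM in LacZ, and Tpr2, a cochaperone gene, had 167 ± 4.93 CPM in Ime4_dMettl14, 185 ± 3.27 CPM in Nito and 199 ± 2.76 CPM in LacZ. There the pair's knockdown was the further from the control.

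With an average log2 CPM of 3 set as the lowest level considered, the genes highest in Ime4_dMettl14 relative to Nito include several of transport and membrane proteins. Apoltp (FBgn0032136, chromosome 2L, 9634179 to 9656026), the gene of a lipid transfer particle, had 63.9, 63.2 and 60.5 CPM in Ime4_dMettl14, 8.38, 10.8 and 11.8 CPM in Nito and 70.4, 68.1 and 63.8 CPM in LacZ. All 3 Nito libraries lay far below the other 6 (log2 fold change 2.59 ± 0.08, 6.03-fold, adjusted p = 1.95e-20 by edgeR). Cubn (FBgn0052702, chromosome X, 9558665 to 9571308), cubilin, an endocytic receptor, had 125, 125 and 146 CPM in Ime4_dMettl14, 23.8, 19.9 and 23.7 CPM in Nito and 136, 108 and 99.3 CPM in LacZ (2.55 ± 0.13). CAH7 (FBgn0037788, chromosome 3R, 10112237 to 10120081), of the carbonic anhydrase family, had 133, 113 and 128 CPM in Ime4_dMettl14, 22.1, 19.9 and 24.2 CPM in Nito and 140.2, 142 and 143 CPM in LacZ (2.5 ± 0.07). In all of these the Ime4_dMettl14 libraries kept close to the control. CG31522 had 65.1 CPM in Ime4_dMettl14, 12.1 CPM in Nito and 76.3 CPM in LacZ (2.43 ± 0.06), and CG10365 34.1 CPM in Ime4_dMettl14, 7.28 CPM in Nito and 35.5 CPM in LacZ (2.22 ± 0.12). The exons of both overlap a gene on the opposite strand, as do those of Syn1. Stlk, a gene of a STE20-like kinase, had 34.7, 32.4 and 38.2 CPM in Ime4_dMettl14, 7.96, 7.68 and 8.12 CPM in Nito and 42.6, 46.2 and 43.9 CPM in LacZ (2.15 ± 0.08). Syx4, a syntaxin of membrane fusion, had 34.4 ± 0.728 CPM in Ime4_dMettl14, 8.53 ± 0.489 CPM in Nito and 38.6 ± 1.02 CPM in LacZ (2.01 ± 0.07). The syntrophin-like gene Syn1 had 61.9 ± 2.09 CPM in Ime4_dMettl14, 15.6 ± 0.611 CPM in Nito and 73.5 ± 4.71 CPM in LacZ (1.98 ± 0.06). For Stlk and Syn1 both knockdowns were below LacZ. The beta-tubulin gene betaTub97EF had 45.7, 48.8 and 45.8 CPM in Ime4_dMettl14, 11.6, 13.5 and 12.7 CPM in Nito and 48.6, 48.3 and 52.1 CPM in LacZ (1.89 ± 0.07).

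Ant2, an ADP/ATP carrier gene of the mitochondrial inner membrane, and CG15211 lie end to end on the X chromosome and were both high on this side. Ant2 (FBgn0025111, chromosome X, 10778954 to 10786907) had 25.5, 25.2 and 26.9 CPM in Ime4_dMettl14, 5.04, 5.01 and 4.33 CPM in Nito and 21.2, 23.1 and 23.4 CPM in LacZ (2.43 ± 0.08). CG15211 (FBgn0030234, chromosome X, 10772541 to 10778981) had 37.5, 38.1 and 41.7 CPM in Ime4_dMettl14, 8.20, 7.11 and 8.17 CPM in Nito and 58.2, 61.1 and 63.2 CPM in LacZ (2.32 ± 0.07). Their ends overlap on opposite strands, and Ant2 also shares exon sequence with the neighbouring sesB, so reads of this locus may be assigned to the wrong gene, and each value is uncertain.

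On the lower side the most abundant large difference was CG15784. CG15784 (FBgn0029766, chromosome X, 5429571 to 5432526), a gene with 1 exon, had 502, 553 and 543 CPM in Ime4_dMettl14, 4490.5, 4221 and 4382 CPM in Nito and 271, 255 and 246 CPM in LacZ. The 3 groups were ordered with no overlap: Nito highest, 8.19-fold of Ime4_dMettl14, then Ime4_dMettl14, then LacZ (log2 fold change −3.03 ± 0.09, adjusted p = 4.03e-12 by edgeR). fng (FBgn0011591, chromosome 3L, 20925891 to 20949512), fringe, encodes a glycosyltransferase that modifies the Notch receptor. It had 4.12, 3.90 and 4.31 CPM in Ime4_dMettl14, 16.04, 16.7 and 17.3 CPM in Nito and 3.61, 4.57 and 3.26 CPM in LacZ (−2.02 ± 0.11). Its exons overlap CG10589 on the opposite strand. CG6569 had 7.28 ± 0.492 CPM in Ime4_dMettl14, 26.8 ± 1.58 CPM in Nito and 6.60 ± 0.295 CPM in LacZ (−1.88 ± 0.08), and CG12493 had 4.69 ± 0.242 CPM in Ime4_dMettl14, 15.7 ± 0.123 CPM in Nito and 4.42 ± 0.513 CPM in LacZ (−1.74 ± 0.11). Both overlap a gene on the opposite strand, and in both the Ime4_dMettl14 libraries lay with the control. Ugt50B3, of the UDP-glycosyltransferase family, had 6.96, 6.61 and 9.72 CPM in Ime4_dMettl14, 25.3, 23.1 and 26.2 CPM in Nito and 7.50, 8.46 and 8.55 CPM in LacZ (−1.67 ± 0.10). Several genes of this side are long noncoding RNAs. lncRNA:CR44953 had 5.16, 6.67 and 6.30 CPM in Ime4_dMettl14, 36.99, 35.3 and 35.9 CPM in Nito and 6.07, 4.23 and 5.10 CPM in LacZ (−2.58 ± 0.09). lncRNA:CR31044 had 8.26 ± 0.552 CPM in Ime4_dMettl14, 25.9 ± 1.24 CPM in Nito and 8.23 ± 0.507 CPM in LacZ (−1.65 ± 0.08). lncRNA:CR43963, whose exons overlap those of Smr on the same strand, had 4.19 ± 0.38 CPM in Ime4_dMettl14, 15.1 ± 0.732 CPM in Nito and 3.85 ± 1.02 CPM in LacZ (−1.85 ± 0.17).

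**Figure D3:**
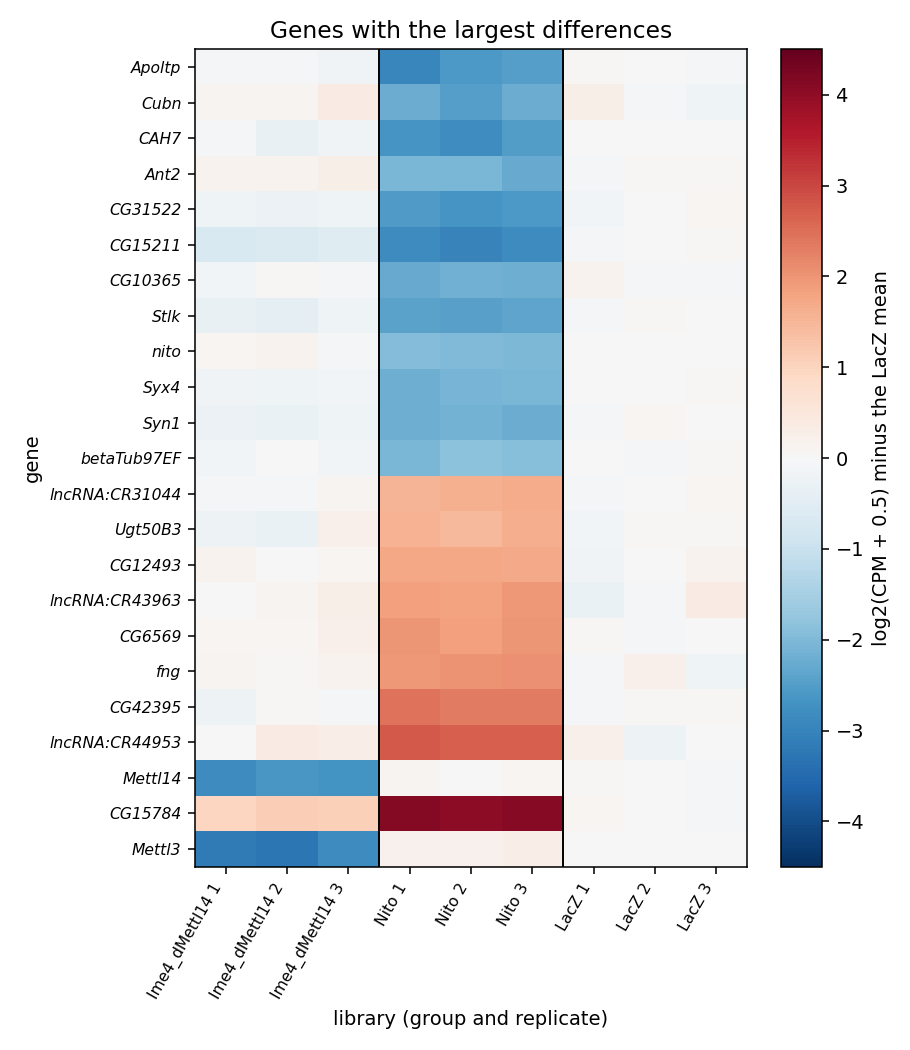
The named genes with the largest differences (vertical axis) in each library (horizontal axis, Ime4_dMettl14 left, Nito middle, LacZ right). Colour gives log2(CPM + 0.5) minus the mean of the LacZ libraries, red above and blue below it. The Nito columns carry nearly all of the colour, while the Ime4_dMettl14 columns are strongly coloured for Mettl3 and Mettl14 and more weakly for CG15784 and CG15211.

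A short stretch of the X chromosome held differences in both directions. Cubn ends where LPCAT (FBgn0052699, chromosome X, 9571537 to 9579987) begins, and CG42395 lies inside LPCAT on the same strand, with no exon shared. LPCAT encodes a lysophospholipid acyltransferase and had 856, 843 and 870.0 CPM in Ime4_dMettl14, 332, 326 and 336 CPM in Nito and 858, 828 and 806 CPM in LacZ (1.37 ± 0.03). CG42395 (FBgn0259741, chromosome X, 9575126 to 9576247) had 5.92, 7.39 and 6.63 CPM in Ime4_dMettl14, 40.1, 37.4 and 37.5 CPM in Nito and 6.59, 7.26 and 7.25 CPM in LacZ (−2.53 ± 0.09). The host was thus higher and the gene within it lower in Ime4_dMettl14, and in both the Ime4_dMettl14 and LacZ libraries lay together.

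By the difference in CPM, which also grows with transcript length, CG15784 stood first, and the other named genes are abundant transcripts with modest folds. Besides LPCAT, the higher ones include Meltrin, a gene of an ADAM metalloprotease, with 1906, 1818 and 1861 CPM in Ime4_dMettl14, 1052, 1029 and 1083 CPM in Nito and 1677, 1640.5 and 1589 CPM in LacZ (0.82 ± 0.03). LanA, the laminin alpha chain gene, had 5377, 5226 and 5133 CPM in Ime4_dMettl14, 4354, 4324 and 4258 CPM in Nito and 5641, 5337 and 4825 CPM in LacZ (0.28 ± 0.04). Act42A, a cytoplasmic actin gene, had 5593 ± 38.01 CPM in Ime4_dMettl14, 4741 ± 20.8 CPM in Nito and 5564 ± 98.3 CPM in LacZ (0.24 ± 0.02), and the counts of near-identical actin genes are uncertain. Sap-r, the precursor gene of lysosomal saposins, had 2469 ± 58.8 CPM in Ime4_dMettl14, 1882 ± 1.02 CPM in Nito and 2475 ± 41.4 CPM in LacZ (0.39 ± 0.03). Lower in Ime4_dMettl14 were Hsp83, the fly Hsp90, with 4813, 4863 and 4695 CPM in Ime4_dMettl14, 5593, 5678 and 5558 CPM in Nito and 4513, 4439 and 4487 CPM in LacZ (−0.23 ± 0.03), and RpL7A, of the large ribosomal subunit. RpL7A had 1287, 1319.6 and 1300.0 CPM in Ime4_dMettl14, 1770.1, 1882 and 1818 CPM in Nito and 1689.7, 1676 and 1772 CPM in LacZ (−0.49 ± 0.03). For RpL7A the Nito and LacZ libraries lay close together and Ime4_dMettl14 below both. Against LacZ it was −0.40 ± 0.03 in Ime4_dMettl14 and 0.09 ± 0.03 in Nito.

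Some transcripts averaged under 1 CPM in one knockdown and several CPM in the other. CG5810 had 0.464, 0.781 and 0.663 CPM in Ime4_dMettl14, 7.90, 5.92 and 7.24 CPM in Nito and 0.515, 0.857 and 1.48 CPM in LacZ (−3.45 ± 0.25). Rcd-1r, a relative of the CCR4-NOT subunit gene Rcd-1, had 0.87, 0.961 and 0.663 CPM in Ime4_dMettl14, 5.59, 5.06 and 5.54 CPM in Nito and 0.974, 0.914 and 0.369 CPM in LacZ (−2.69 ± 0.23). CG45263 had 0.873 CPM in Ime4_dMettl14 and 5.35 CPM in Nito, and b6 0.944 CPM in Ime4_dMettl14 and 4.42 CPM in Nito. In all of these LacZ was as low as Ime4_dMettl14. The reverse was seen for CG9360, with 3.89, 4.50 and 4.14 CPM in Ime4_dMettl14, 0.668, 0.683 and 0.603 CPM in Nito and 4.24, 5.49 and 4.18 CPM in LacZ (2.67 ± 0.24). It was also seen for eag, a potassium channel gene, with 3.77 CPM in Ime4_dMettl14, 0.885 CPM in Nito and 4.36 CPM in LacZ. Dhc36C, a dynein heavy chain gene, had 3.91 CPM in Ime4_dMettl14, 0.846 CPM in Nito and 3.89 CPM in LacZ. The tubulin-binding protein gene ringer had 3.22 CPM in Ime4_dMettl14, 0.956 CPM in Nito and 2.44 CPM in LacZ.

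The named gene lists differed in how many members were called and in which direction, against 31.1% higher and 31.3% lower over all genes tested. The median log2 fold change of all genes was −0.005. Lists are described by their counts and medians alone. In the comparison of the knockdowns, wherever edgeR called 0 members of a list in a direction, DESeq2 also called 0 in it, and 0 members had an unadjusted p under 0.05 there, except for 1 export and nuclear pore gene on the higher side.

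**Figure D4:**
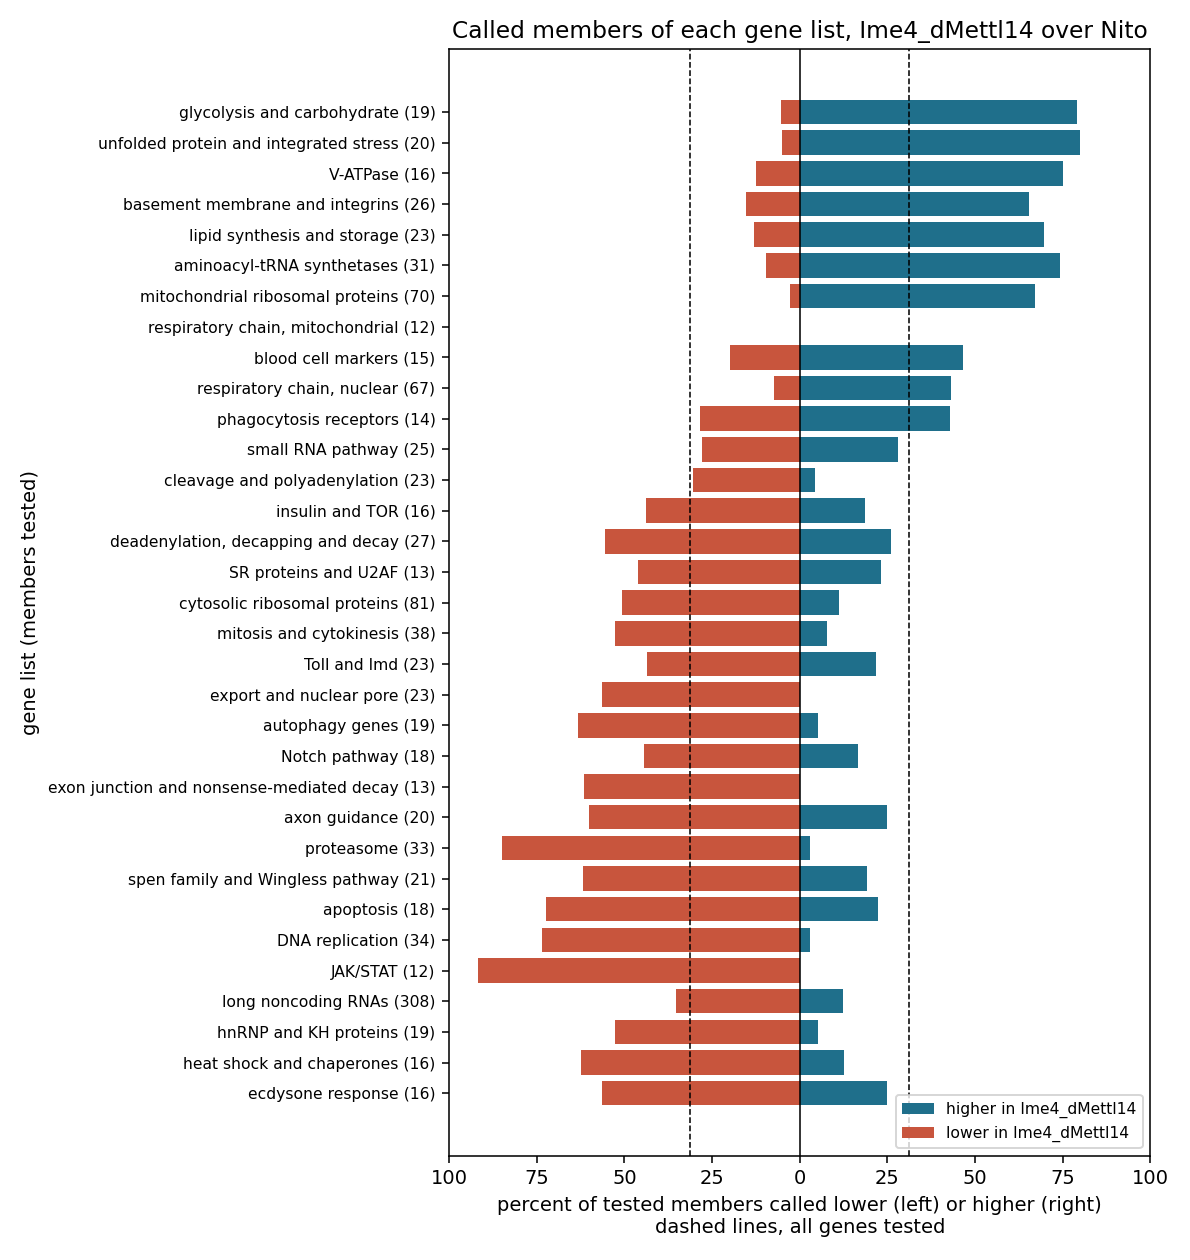
Percent of the tested members of each gene list called lower (bars to the left, orange) or higher (bars to the right, blue) in Ime4_dMettl14, with the number tested in brackets and lists of at least 12 tested members shown. The dashed lines mark the 31.3% lower and 31.1% higher of all genes tested. Lists are ordered by their median log2 fold change, with glycolysis at the top and the ecdysone response at the bottom.

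Several lists of RNA processing leaned to lower transcript in Ime4_dMettl14. Of 13 genes of the exon junction complex and nonsense-mediated decay, 0 were higher and 8 lower (median −0.19). The lower ones include btz, of the exon junction complex, with 58.2 CPM in Ime4_dMettl14 and 75.7 CPM in Nito (−0.38 ± 0.05), and the decay factor gene Smg6, with 103 CPM in Ime4_dMettl14 and 127 CPM in Nito (−0.30 ± 0.04). Of 23 export and nuclear pore genes 0 were higher and 13 lower (median −0.14), among them Nup153 (−0.40 ± 0.03), Nup93-1 (−0.39 ± 0.03) and the export adaptor gene Ref1 (−0.36 ± 0.04). The 0 higher became 1 without Ime4_dMettl14 replicate 2 or 3. Of 13 SR protein and U2AF genes 3 were higher and 6 lower (median −0.10). The 3 higher ones became 1 without Ime4_dMettl14 replicate 1 and 0 without Nito replicate 3 or with upper-quartile scaling. U2af50, the large subunit of the factor that recognises the 3′ splice site, had 197, 201 and 203 CPM in Ime4_dMettl14, 282, 289 and 284 CPM in Nito and 203, 202 and 207 CPM in LacZ (−0.51 ± 0.03, adjusted p = 8.55e-16 by edgeR). The 2 knockdowns were separated there, and LacZ lay with Ime4_dMettl14.

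The hnRNP and KH-domain genes, whose proteins bind pre-mRNA, had 1 higher and 10 lower of 19 (median −0.28). The 1 higher became 2 without Ime4_dMettl14 replicate 2 or Nito replicate 2 or 3. Hrb98DE had 413, 405 and 423 CPM in Ime4_dMettl14, 589.8, 596 and 593 CPM in Nito and 570.2, 562 and 591 CPM in LacZ (−0.52 ± 0.03). Its close relative Hrb87F, the 1 higher member, had 619, 601 and 595 CPM in Ime4_dMettl14, 457, 497 and 465 CPM in Nito and 522, 516 and 498 CPM in LacZ (0.36 ± 0.06). For Hrb98DE it was Ime4_dMettl14 that stood apart from LacZ (−0.47 ± 0.03 against LacZ in Ime4_dMettl14, 0.05 ± 0.03 in Nito), while for Hrb87F Ime4_dMettl14 was above and Nito below LacZ. The KH-domain genes mub (103 CPM in Ime4_dMettl14, 143 CPM in Nito and 100.4 CPM in LacZ, −0.47 ± 0.04) and HnRNP-K (191 CPM in Ime4_dMettl14, 236 CPM in Nito and 197 CPM in LacZ, −0.31 ± 0.03) were lower, with LacZ near Ime4_dMettl14. Of 23 cleavage and polyadenylation genes 1 was higher and 7 (30.4%) lower, a share near that of all genes (median −0.06). The 7 became 2 without Ime4_dMettl14 replicate 3, and 4 without Ime4_dMettl14 replicate 1 or Nito replicate 2, while the 1 higher became 2 without Ime4_dMettl14 replicate 2 or Nito replicate 3.

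Of 27 genes of mRNA decay 7 were higher and 15 lower (median −0.09). The 15 became 10 without Nito replicate 1 and 11 without Ime4_dMettl14 replicate 3. They became 12 without Ime4_dMettl14 replicate 1 or Nito replicate 3, while the 7 stayed 7 in each of these. All 7 higher ones encode subunits of the RNA exosome, which degrades RNA from the 3′ end. This subset was named after its values were seen: 7 of its 9 members were higher and 0 lower, with a range of −0.04 to 0.33. The 18 other members, most of them of deadenylation, decapping or decay from the 5′ end, had 0 higher and 15 lower, between −0.64 and 0.06. They also hold tst, a helicase that works with the cytoplasmic exosome, whose difference was not called. For both counts of 0 by edgeR, 0 members had an unadjusted p under 0.05 and DESeq2 called 0. Rrp40 of the exosome had 34.5, 35.9 and 32.5 CPM in Ime4_dMettl14, 27.9, 26.7 and 27.3 CPM in Nito and 31.9, 34.7 and 32.5 CPM in LacZ (0.33 ± 0.06). Rrp6, its nuclear nuclease, had 65.7, 67.2 and 63.5 CPM in Ime4_dMettl14, 56.98, 54.7 and 53.95 CPM in Nito and 65.7, 64.001 and 63.01 CPM in LacZ (0.25 ± 0.04). On the lower side pcm, the 5′ exonuclease Xrn1 of flies, had 111, 112 and 105 CPM in Ime4_dMettl14, 163, 169 and 163 CPM in Nito and 115, 119 and 119 CPM in LacZ (−0.59 ± 0.04). The translational repressor gene tral had 492 ± 0.717 CPM in Ime4_dMettl14, 640.5 ± 21.1 CPM in Nito and 473 ± 7.73 CPM in LacZ (−0.38 ± 0.03), and Rcd-1 108 ± 4.63 CPM in Ime4_dMettl14, 132 ± 2.23 CPM in Nito and 106 ± 2.86 CPM in LacZ (−0.29 ± 0.04). LacZ lay near Ime4_dMettl14 for each of these 5 genes.

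Small RNA genes had as many higher as lower members, 7 and 7 of 25 (median −0.06). Each is a share of 28.0%, near those of all genes. Beside AGO3, the piRNA genes papi (75.6 CPM in Ime4_dMettl14, 49.6 CPM in Nito and 71.3 CPM in LacZ, 0.61 ± 0.04) and aub (218 CPM in Ime4_dMettl14, 175 CPM in Nito and 219.9 CPM in LacZ, 0.32 ± 0.03) were higher. Pasha, the partner of Drosha in cutting microRNA hairpins, had 27.1, 25.6 and 25.2 CPM in Ime4_dMettl14, 66.6, 66.5 and 66.9 CPM in Nito and 25.03, 26.3 and 28.6 CPM in LacZ (−1.36 ± 0.05, adjusted p = 6.04e-20 by edgeR). Its Nito libraries lay far above the other groups. Hen1, which methylates the ends of small RNAs, had 16.5 ± 1.05 CPM in Ime4_dMettl14, 28.7 ± 0.468 CPM in Nito and 13.7 ± 0.386 CPM in LacZ (−0.80 ± 0.07). Dcr-2, the Dicer of the siRNA pathway that also processes added dsRNA, had 252 ± 4.86 CPM in Ime4_dMettl14, 311 ± 2.64 CPM in Nito and 244 ± 8.66 CPM in LacZ (−0.30 ± 0.03). All cells had received dsRNA, and the part of that in the Dcr-2 difference was not tested.

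Lists of signalling pathways leaned to lower transcript in Ime4_dMettl14. Most of them hold long genes, and long genes were more often lower in general, as set out with transcript length below. Of 12 JAK/STAT genes 0 were higher and 11 lower (median −0.25). The transcription factor gene Stat92E had 422, 401 and 420.4 CPM in Ime4_dMettl14, 476, 486 and 499 CPM in Nito and 409.6, 412 and 413 CPM in LacZ (−0.23 ± 0.03). The phosphatase gene Ptp61F (−0.23 ± 0.03) and the inhibitor gene Socs44A (−0.27 ± 0.04) were lower too. Against LacZ, Ime4_dMettl14 had 1 higher and 0 lower, and Nito had 11 higher and 0 lower. Of 21 genes of the Spen family and Wingless pathway, which hold nito itself, 4 were higher and 13 lower (median −0.21). The lower ones include the kinase gene CkIalpha, with 448, 448 and 477 CPM in Ime4_dMettl14, 625, 604 and 622 CPM in Nito and 452, 455 and 476 CPM in LacZ (−0.43 ± 0.04), the kinase gene dco (260.2 CPM in Ime4_dMettl14, 336 CPM in Nito and 242 CPM in LacZ, −0.37 ± 0.03) and dsh, the relay of the receptor (64.6 CPM in Ime4_dMettl14, 83.8 CPM in Nito and 66.8 CPM in LacZ, −0.38 ± 0.04). The receptor gene fz (30.7 CPM in Ime4_dMettl14, 27.02 CPM in Nito and 30.4 CPM in LacZ, 0.18 ± 0.06) and wls, needed for Wingless secretion (138 CPM in Ime4_dMettl14, 128 CPM in Nito and 139.9 CPM in LacZ, 0.11 ± 0.03), were higher.

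The Notch list had 3 higher and 8 lower of 18 (median −0.16). The receptor gene N had 173, 177 and 179 CPM in Ime4_dMettl14, 141, 142 and 137 CPM in Nito and 190.2, 188 and 176 CPM in LacZ (0.33 ± 0.04). O-fut1, which adds the first fucose to Notch, was also higher (168 CPM in Ime4_dMettl14, 141 CPM in Nito and 172 CPM in LacZ, 0.26 ± 0.03). Fringe, which extends that fucose, was the lowest of the list, as given above, and dx, a regulator of Notch traffic, was lower as well (61.01 CPM in Ime4_dMettl14, 86.6 CPM in Nito and 60.4 CPM in LacZ, −0.51 ± 0.05). In the Toll and Imd list 5 of 23 were higher and 10 lower (median −0.11). The Toll ligand gene spz (264 CPM in Ime4_dMettl14, 206 CPM in Nito and 283 CPM in LacZ, 0.36 ± 0.03) and the receptor gene Tl (110.3 CPM in Ime4_dMettl14, 96.3 CPM in Nito and 121 CPM in LacZ, 0.20 ± 0.04) were higher, while the Imd factors Rel (199 CPM in Ime4_dMettl14, 238 CPM in Nito and 202 CPM in LacZ, −0.26 ± 0.03) and key (202 CPM in Ime4_dMettl14, 249 CPM in Nito and 216 CPM in LacZ, −0.31 ± 0.04) were lower. Tab2, which also acts in the Imd pathway, was higher (0.45 ± 0.04).

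Genes of the ecdysone response had the lowest median of the lists with at least 12 tested members, −0.58, with 4 higher and 9 lower of 16. The hormone receptor gene EcR had 54.5, 54.2 and 57.7 CPM in Ime4_dMettl14, 96.3, 92.2 and 90.03 CPM in Nito and 65.2, 63.9 and 61.1 CPM in LacZ (−0.74 ± 0.05). Oatp74D, the importer of ecdysone into cells, had 144, 137 and 143 CPM in Ime4_dMettl14, 196, 204 and 204 CPM in Nito and 135, 146 and 138 CPM in LacZ (−0.51 ± 0.04). The nuclear receptor gene Hr4 was low in all groups (1.75 CPM in Ime4_dMettl14, 5.14 CPM in Nito and 2.46 CPM in LacZ, −1.55 ± 0.16). In each, Nito was the highest group. The higher members include Cth, of cysteine metabolism (190.1 CPM in Ime4_dMettl14, 125 CPM in Nito and 191 CPM in LacZ, 0.60 ± 0.03), and the insulin-binding protein gene ImpL2 (1519 CPM in Ime4_dMettl14, 1320.0 CPM in Nito and 1428 CPM in LacZ, 0.20 ± 0.03). The highest log2 fold change of the list was 1.03. Against LacZ, Ime4_dMettl14 had 0 higher and 1 lower, and Nito had 11 higher and 4 lower.

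Axon guidance genes, many of which serve cell adhesion in other tissues, had 5 higher and 12 lower of 20 (median −0.19). The receptor gene PlexB had 38.5, 34.6 and 40.04 CPM in Ime4_dMettl14, 13.7, 12.7 and 12.01 CPM in Nito and 46.2, 44.1 and 44.6 CPM in LacZ (1.56 ± 0.14). The netrin receptor gene unc-5 had 62.4 ± 1.73 CPM in Ime4_dMettl14, 33.5 ± 1.31 CPM in Nito and 72.4 ± 3.74 CPM in LacZ (0.90 ± 0.05). Dscam1, a cell-surface gene of neurons and blood cells, had 641, 616 and 664 CPM in Ime4_dMettl14, 909, 865 and 901 CPM in Nito and 623, 603 and 559 CPM in LacZ (−0.48 ± 0.04), and the adhesion gene Nrt had 7.79 ± 0.488 CPM in Ime4_dMettl14, 16.3 ± 1.19 CPM in Nito and 9.78 ± 1.53 CPM in LacZ (−1.06 ± 0.10).

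Metabolic and secretory genes leaned the other way. Of 19 genes of glycolysis and carbohydrate metabolism 15 were higher and 1 was lower (median 0.32), the 1 lower call being lost without Ime4_dMettl14 replicate 1. The kinase gene Pfk, at the committed step of glycolysis, had 69.5, 77.3 and 72.1 CPM in Ime4_dMettl14, 52.2, 52.2 and 50.2 CPM in Nito and 81.1, 70.9 and 70.5 CPM in LacZ (0.50 ± 0.05). Pyruvate kinase, PyK, had 622, 651 and 624 CPM in Ime4_dMettl14, 493, 524 and 504 CPM in Nito and 625, 633 and 635 CPM in LacZ (0.32 ± 0.03). In both, Nito was lowest with no overlap. Of 23 lipid genes 16 were higher and 3 lower (median 0.23). Inos, which makes inositol phosphate, had 519, 550.1 and 525 CPM in Ime4_dMettl14, 315, 325 and 325 CPM in Nito and 570.0, 549.8 and 554 CPM in LacZ (0.72 ± 0.03). The ethanolamine kinase gene eas had 161 ± 5.68 CPM in Ime4_dMettl14, 99.6 ± 5.18 CPM in Nito and 158 ± 0.891 CPM in LacZ (0.69 ± 0.04). A member that was lower, bmm, encodes a triglyceride lipase, which breaks lipid down (53.9 ± 2.23 CPM in Ime4_dMettl14, 69.96 ± 3.23 CPM in Nito and 54.4 ± 3.75 CPM in LacZ, −0.37 ± 0.05). Against LacZ, the glycolysis list in Ime4_dMettl14 had 1 higher and 2 lower, and Nito had 2 higher and 15 lower. For the lipid list Ime4_dMettl14 had 1 higher and 3 lower, and Nito had 5 higher and 16 lower.

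The unfolded protein and integrated stress list had, among lists with at least 12 tested members, the highest share of higher members, 16 of 20 with 1 lower (median 0.31). The count of lower members became 0 without Ime4_dMettl14 replicate 1 or Nito replicate 1 or 3, and with no filter on low counts. Sil1, the exchange factor of the endoplasmic reticulum chaperone BiP, had 102, 100.2 and 104 CPM in Ime4_dMettl14, 60.4, 62.7 and 58.7 CPM in Nito and 90.9, 91.9 and 95.2 CPM in LacZ (0.75 ± 0.04). Calreticulin, Calr, had 1992, 1989 and 2034 CPM in Ime4_dMettl14, 1544, 1495 and 1510.1 CPM in Nito and 1779, 1736 and 1698 CPM in LacZ (0.40 ± 0.03). The disulfide isomerase gene ERp60 had 1885, 1850.2 and 1888 CPM in Ime4_dMettl14, 1443, 1437 and 1431 CPM in Nito and 1709, 1705 and 1705 CPM in LacZ (0.38 ± 0.03). In these 3 genes the LacZ mean lay between the means of the knockdowns. Against LacZ, Ime4_dMettl14 had 11 higher and 0 lower, and Nito had 2 higher and 14 lower, so both knockdowns moved from the control, in opposite directions. The V-ATPase list, of the proton pump of lysosomes, had 12 higher and 2 lower of 16 (median 0.29). VhaM9.7-b had 179 ± 0.954 CPM in Ime4_dMettl14, 129 ± 2.35 CPM in Nito and 171 ± 6.58 CPM in LacZ (0.47 ± 0.04), and the accessory subunit gene VhaAC45 had 501 ± 9.15 CPM in Ime4_dMettl14, 386 ± 3.83 CPM in Nito and 496 ± 2.42 CPM in LacZ (0.38 ± 0.03). The 2 lower members, Vha36-3 and Vha68-3, were at 0.387 CPM in Ime4_dMettl14 and 1.05 CPM in Nito, and at 0.174 CPM in Ime4_dMettl14 and 0.551 CPM in Nito.

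Of 31 aminoacyl-tRNA synthetase genes, whose enzymes load tRNAs, 23 were higher and 3 lower (median 0.22). IleRS had 290.3 ± 5.99 CPM in Ime4_dMettl14, 222 ± 5.29 CPM in Nito and 279 ± 7.30 CPM in LacZ (0.39 ± 0.03) and AlaRS 586 ± 16.4 CPM in Ime4_dMettl14, 463 ± 8.96 CPM in Nito and 582 ± 9.86 CPM in LacZ (0.34 ± 0.03). Of 70 mitochondrial ribosomal protein genes 47 were higher and 2 lower (median 0.22). The largest difference among those named was in mRpL15, with 25.5, 24.8 and 26.1 CPM in Ime4_dMettl14, 14.9, 15.6 and 15.1 CPM in Nito and 22.6, 23.9 and 23.7 CPM in LacZ (0.74 ± 0.07). Of 81 cytosolic ribosomal protein genes 9 were higher and 41 lower (median −0.10). The 41 became 27 without Ime4_dMettl14 replicate 1. Without Nito replicate 2 they became 25, a share near that of all genes. RpL27 had 1323, 1326 and 1360.2 CPM in Ime4_dMettl14, 1608, 1720.1 and 1651 CPM in Nito and 1462, 1502 and 1561 CPM in LacZ (−0.31 ± 0.03). RpS19b, one of a pair of duplicated genes, stood out as higher, with 47.4, 50.8 and 51.5 CPM in Ime4_dMettl14, 20.5, 20.6 and 21.4 CPM in Nito and 36.9, 39.8 and 38.2 CPM in LacZ (1.26 ± 0.05). Its counts are uncertain where reads cannot separate the copies.

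Respiratory chain genes of the nucleus had 29 higher and 5 lower of 67 (median 0.07), with UQCR-C1 at 231 CPM in Ime4_dMettl14, 189 CPM in Nito and 223 CPM in LacZ (0.29 ± 0.04) and SdhA at 269.9 CPM in Ime4_dMettl14, 219 CPM in Nito and 285 CPM in LacZ (0.30 ± 0.03). The 5 lower became 2 without Ime4_dMettl14 replicate 2 or 3 or Nito replicate 2, and 3 without Ime4_dMettl14 replicate 1. None of the 12 tested respiratory genes of the mitochondrial genome was called by edgeR (median 0.20). Mitochondrial transcripts took 3.48%, 3.48% and 3.37% of counts in Ime4_dMettl14, 2.64%, 3.12% and 3.75% in Nito, and 2.23%, 3.62% and 3.80% in LacZ. The Nito and LacZ libraries each spread over the Ime4_dMettl14 values.

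Lists of growth, division and protein turnover leaned lower. Of 34 DNA replication genes 1 was higher and 25 were lower (median −0.25). The 1 higher became 2 without Ime4_dMettl14 replicate 1 or 3 or Nito replicate 1. In this list Ime4_dMettl14 had 0 higher and 8 lower genes against LacZ, and Nito had 22 higher and 4 lower. PCNA, the sliding clamp, had 380.5, 377 and 373 CPM in Ime4_dMettl14, 499.9, 505 and 489 CPM in Nito and 403, 401 and 406 CPM in LacZ (−0.40 ± 0.03). The helicase subunit gene dpa, which is Mcm4, had 218, 224 and 217 CPM in Ime4_dMettl14, 293, 302 and 298 CPM in Nito and 250.0, 239.8 and 239 CPM in LacZ (−0.44 ± 0.03). Cyclin E, CycE, the trigger of entry into S phase, was the 1 higher member, with 68.8, 61.9 and 73.4 CPM in Ime4_dMettl14, 58.01, 56.6 and 56.8 CPM in Nito and 71.3, 75.4 and 74.4 CPM in LacZ (0.25 ± 0.05). Of 38 mitosis genes 3 were higher and 20 lower (median −0.11). Cyclin B3, CycB3 (87.7 CPM in Ime4_dMettl14, 107 CPM in Nito and 92.97 CPM in LacZ, −0.29 ± 0.04), and fzy, the Cdc20 of flies (154 CPM in Ime4_dMettl14, 192 CPM in Nito and 158 CPM in LacZ, −0.32 ± 0.03), were lower. The kinesin gene ncd (304 CPM in Ime4_dMettl14, 258 CPM in Nito and 340.0 CPM in LacZ, 0.24 ± 0.03) and the kinase gene aurA (70.5 CPM in Ime4_dMettl14, 62.8 CPM in Nito and 76.3 CPM in LacZ, 0.17 ± 0.04) were higher, with both knockdowns below LacZ. In the mitosis list Ime4_dMettl14 had 1 higher and 7 lower genes against LacZ, and Nito had 14 higher and 8 lower.

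The proteasome list had 1 higher and 28 lower of 33 (median −0.19). Rpt6, of the ATPase ring, had 489, 489.8 and 471 CPM in Ime4_dMettl14, 628, 647 and 629.6 CPM in Nito and 472, 485 and 495 CPM in LacZ (−0.39 ± 0.03). The regulatory subunit gene Rpn2 had 534 ± 15.3 CPM in Ime4_dMettl14, 674 ± 5.97 CPM in Nito and 524 ± 4.66 CPM in LacZ (−0.34 ± 0.03). Rpn1, its structural relative, was the 1 higher member, with 484, 467 and 462 CPM in Ime4_dMettl14, 387, 403 and 398 CPM in Nito and 457, 458 and 463 CPM in LacZ (0.25 ± 0.03). Rpn2 and Rpn1 thus differed in opposite directions, and for both LacZ lay with Ime4_dMettl14. Against LacZ, Ime4_dMettl14 had 0 higher and 0 lower, and Nito had 29 higher and 1 lower. Autophagy genes had 1 higher and 12 lower of 19 (median −0.14), led by Atg8a, which coats autophagosomes (291 CPM in Ime4_dMettl14, 392 CPM in Nito and 277 CPM in LacZ, −0.43 ± 0.03).

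Apoptosis genes had 4 higher and 13 lower of 18 (median −0.22). The death gene rpr, reaper, had 13.6, 12.9 and 13.6 CPM in Ime4_dMettl14, 28.8, 27.3 and 29.3 CPM in Nito and 10.8, 12.8 and 12.5 CPM in LacZ (−1.09 ± 0.07). The initiator caspase gene Dronc had 47.8, 50.9 and 47.5 CPM in Ime4_dMettl14, 68.1, 75.3 and 74.4 CPM in Nito and 48.7, 45.9 and 49.9 CPM in LacZ (−0.58 ± 0.05). Both were highest in Nito, as was Dark, the activator of Dronc (180.0 CPM in Ime4_dMettl14, 211 CPM in Nito and 179 CPM in LacZ, −0.23 ± 0.03). The higher members hold egr, the TNF of flies (750.2 CPM in Ime4_dMettl14, 565 CPM in Nito and 686 CPM in LacZ, 0.41 ± 0.03), Debcl, a Bcl-2 family gene (111 CPM in Ime4_dMettl14, 79.2 CPM in Nito and 107 CPM in LacZ, 0.49 ± 0.04), and BI-1 (165 CPM in Ime4_dMettl14, 131 CPM in Nito and 154 CPM in LacZ, 0.34 ± 0.04). In each of these Nito was the lowest group, so the list held differences in both directions. Heat shock genes had 2 higher and 10 lower of 16 (median −0.33). The largest difference of the list was on the higher side, in l(2)efl (log2 fold change 1.64). The small heat shock gene Hsp27 had 16.01, 14.5 and 13.97 CPM in Ime4_dMettl14, 34.7, 37.1 and 36.1 CPM in Nito and 15.01, 18.1 and 18.4 CPM in LacZ (−1.28 ± 0.08). The noncoding heat shock RNA lncRNA:Hsromega had 58.6, 59.3 and 62.96 CPM in Ime4_dMettl14, 123, 109.8 and 124 CPM in Nito and 67.1, 65.3 and 66.9 CPM in LacZ (−0.98 ± 0.06). The insulin and TOR list had 3 higher and 7 lower of 16 (median −0.09), with the translation inhibitor gene Thor higher (24.2 CPM in Ime4_dMettl14, 17.6 CPM in Nito and 26.4 CPM in LacZ, 0.46 ± 0.08) and REPTOR, a transcription factor held back by TOR, lower (167 CPM in Ime4_dMettl14, 266 CPM in Nito and 199.8 CPM in LacZ, −0.67 ± 0.08).

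Of 26 basement membrane and integrin genes 17 were higher and 4 lower (median 0.24). The 4 lower became 2 without Ime4_dMettl14 replicate 2 or Nito replicate 1. Tig, tiggrin, a matrix ligand of integrins, had 273, 262 and 262 CPM in Ime4_dMettl14, 106, 111 and 112 CPM in Nito and 310.4, 312 and 288 CPM in LacZ (1.28 ± 0.04). The matrix protease gene Mmp2 had 502, 466 and 476 CPM in Ime4_dMettl14, 222, 220.4 and 228 CPM in Nito and 469, 475 and 477 CPM in LacZ (1.11 ± 0.04). LanB2, the laminin gamma chain, had 1005, 977 and 965 CPM in Ime4_dMettl14, 543, 585 and 559 CPM in Nito and 969, 981 and 924 CPM in LacZ (0.80 ± 0.03). Timp, the inhibitor of matrix proteases, was lower, at a low level (2.56 CPM in Ime4_dMettl14, 5.32 CPM in Nito and 2.35 CPM in LacZ, −1.07 ± 0.18). Of 6 tubulin genes 3 were higher and 1 lower. The lower one is alphaTub84B (2351 CPM in Ime4_dMettl14, 2765 CPM in Nito and 2398 CPM in LacZ, −0.23 ± 0.03), whose near-identical copies make its count uncertain.

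Blood cell markers had 7 higher and 3 lower of 15 tested (median 0.13), and their summed level was 3317 to 3441 CPM in Ime4_dMettl14, 3144 to 3176 CPM in Nito and 3346 to 3458 CPM in LacZ. The GATA factor gene srp had 232, 226 and 241 CPM in Ime4_dMettl14, 156, 163 and 159 CPM in Nito and 243, 254 and 239.8 CPM in LacZ (0.55 ± 0.04). In bulk RNA, fewer cells of a type and less RNA per cell cannot be told apart. Of 14 phagocytosis genes 6 were higher and 4 lower (median −0.01). Besides drpr, the engulfment receptor gene NimC4 had 78.1, 76.3 and 76.8 CPM in Ime4_dMettl14, 27.9, 30.6 and 27.9 CPM in Nito and 78.9, 84.5 and 85.3 CPM in LacZ (1.42 ± 0.05). The scavenger receptor gene Sr-CI had 61.996, 59.2 and 64.7 CPM in Ime4_dMettl14, 29.7, 29.2 and 31.3 CPM in Nito and 62.2, 54.8 and 53.5 CPM in LacZ (1.04 ± 0.05). The bacterial receptor gene eater went the other way, with 5.33 ± 0.512 CPM in Ime4_dMettl14, 10.1 ± 0.477 CPM in Nito and 6.95 ± 0.673 CPM in LacZ (−0.92 ± 0.11). For NimC4 and Sr-CI the Ime4_dMettl14 and LacZ libraries lay far above Nito, unlike drpr.

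Markers of other cell types passed the filter only in part. Of 15 neuron markers 7 passed the filter, and 0 of these were higher and 6 lower (median −0.85). Of the 7, 2 averaged under 1 CPM in Ime4_dMettl14 and 0 in Nito, so a member can have passed through Nito. With the filter at 5 CPM 4 were tested and 3 were lower. The 6 became 5 without Ime4_dMettl14 replicate 1 or Nito replicate 3. The sum of the 7 was 118 to 145 CPM in Ime4_dMettl14, 213 to 240.2 CPM in Nito and 162 to 168 CPM in LacZ. Most of that sum is Syx1A, a syntaxin of vesicle release, with 89.2, 81.7 and 97.9 CPM in Ime4_dMettl14, 161, 152 and 170.0 CPM in Nito and 116, 112 and 116 CPM in LacZ (−0.85 ± 0.10). The microtubule gene futsch had 6.90 ± 0.936 CPM in Ime4_dMettl14, 13.1 ± 0.763 CPM in Nito and 7.01 ± 0.699 CPM in LacZ (−0.92 ± 0.10), and the synaptic gene brp 0.886 ± 0.0746 CPM in Ime4_dMettl14, 2.42 ± 0.263 CPM in Nito and 0.665 ± 0.13 CPM in LacZ (−1.45 ± 0.26). Of 13 germline and gonad markers 9 passed, with 1 higher and 4 lower, and 2 higher without Ime4_dMettl14 replicate 2 or Nito replicate 3. These 9 summed to 362 to 373 CPM in Ime4_dMettl14, 352 to 361 CPM in Nito and 356 to 377 CPM in LacZ. Of 16 muscle and fat body markers 5 passed, with 1 higher, the muscle factor gene Mef2 (97.9 CPM in Ime4_dMettl14, 84.5 CPM in Nito and 96.7 CPM in LacZ, 0.21 ± 0.04), and 2 lower. The part of other cell types in these differences was not tested.

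Of 2262 long noncoding RNAs 308 passed the filter, and 122 of these averaged under 1 CPM in Ime4_dMettl14 and 104 in Nito, so a member can have passed through the knockdown in which it was high. Of the 308, 38 (12.3%) were higher and 109 (35.4%) lower in Ime4_dMettl14, the lower share being near that of all genes. Their median was −0.27, against −0.08 over the 1363 tested with no filter and −0.33 over the 85 above 5 CPM in at least 3 libraries. Together the 308 took 0.386%, 0.384% and 0.394% of the summed CPM of tested genes in Ime4_dMettl14, 0.479%, 0.466% and 0.478% in Nito, and 0.405%, 0.391% and 0.398% in LacZ. Those 3 Nito libraries lay above all others. The most extreme of all 8146 genes was lncRNA:CR43626 (FBgn0263617, chromosome 3L, 3249340 to 3254504), with 0.812, 0.961 and 1.49 CPM in Ime4_dMettl14, 27.6, 27.2 and 26.6 CPM in Nito and 1.66, 1.26 and 2.09 CPM in LacZ (log2 fold change −4.62 ± 0.14, adjusted p = 2.48e-23 by edgeR). lncRNA:CR30055 had 15.98 ± 1.31 CPM in Ime4_dMettl14, 44.6 ± 1.34 CPM in Nito and 16.02 ± 2.25 CPM in LacZ (−1.48 ± 0.07). On the higher side asRNA:CR46029 had 23.1, 23.005 and 26.95 CPM in Ime4_dMettl14, 10.4, 7.91 and 7.95 CPM in Nito and 31.3, 29.1 and 27.2 CPM in LacZ (1.48 ± 0.09), and lncRNA:CR44417 had 9.39 ± 0.0466 CPM in Ime4_dMettl14, 3.31 ± 0.76 CPM in Nito and 10.3 ± 0.673 CPM in LacZ (1.49 ± 0.13). How strand and overlapping genes were treated in the counting is not stated in the sources used, so counts of antisense, nested and overlapping genes are uncertain. Exons of another gene lie on the opposite strand for 35.6% of all called genes.

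The X chromosome differed from the large autosomal arms. Of 1401 X-linked genes tested 259 (18.5%) were higher and 659 (47.0%) lower in Ime4_dMettl14, with a median log2 fold change of −0.14. On 2L, 2R, 3L and 3R together, medians lay between 0.01 and 0.05, with 31.1% to 36.7% of genes higher and 24.3% to 30.3% lower on each arm. X-linked genes took 14.8%, 14.7% and 14.8% of the summed CPM of tested genes in Ime4_dMettl14, 16.2%, 16.2% and 16.1% in Nito, and 14.8%, 14.8% and 14.7% in LacZ. The Nito libraries stood above all others (exact permutation test of the knockdowns, p = 0.1, two-sided, the smallest that 3 against 3 allow). Without CG15784, itself X-linked, the shares were 14.8%, 14.7% and 14.8% in Ime4_dMettl14 and 15.7%, 15.8% and 15.6% in Nito. Against LacZ the X median was −0.001 in Ime4_dMettl14 and 0.15 in Nito. The small chromosome 4 had 11 of 83 genes higher and 40 lower (median −0.20). Its share of the same sum overlapped between the knockdowns, with 0.841%, 0.842% and 0.872% in Ime4_dMettl14, 0.923%, 0.865% and 0.907% in Nito, and 0.909%, 0.873% and 0.894% in LacZ (exact permutation test, p = 0.2, two-sided).

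**Figure D5:**
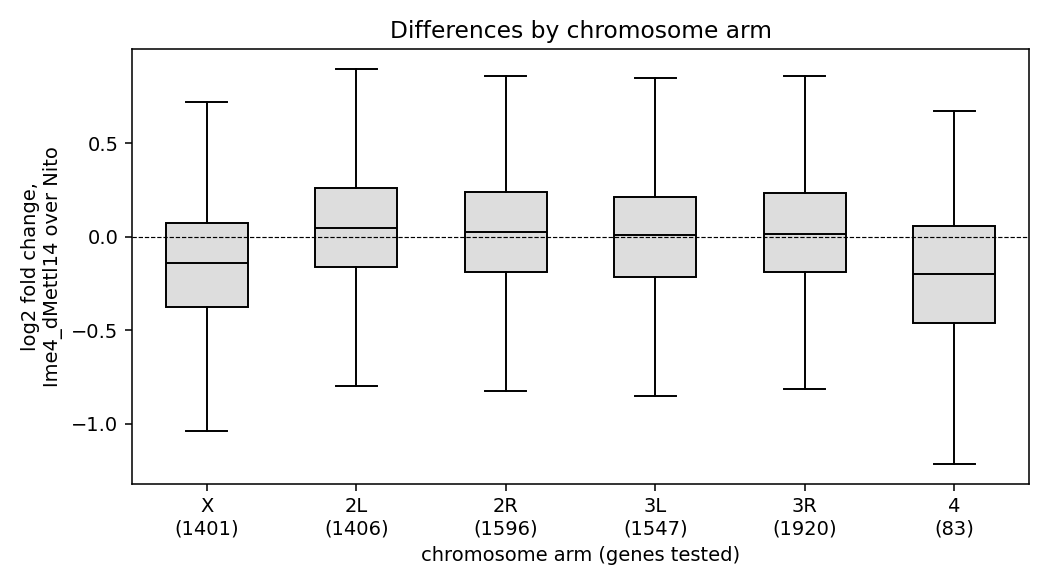
Log2 fold change of Ime4_dMettl14 over Nito for the genes of each chromosome arm, with the number of genes tested in brackets. Boxes span the quartiles with the median as a line, whiskers reach the last gene within 1.5 times the box height, and further genes are not drawn. The boxes of X and 4 sit lower, with medians of −0.14 and −0.20, than those of 2L, 2R, 3L and 3R.

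The dosage compensation complex raises transcription of the single X in male flies and in cells of male type. Of 9 tested genes of that list 2 were higher and 5 lower (median −0.09). The 5 lower became 3 without Ime4_dMettl14 replicate 1 or 3 or Nito replicate 1, and the 2 higher became 1 without Nito replicate 2. lncRNA:roX2, an RNA of the complex, had 55.2, 58.7 and 62.3 CPM in Ime4_dMettl14, 40.6, 41.01 and 39.9 CPM in Nito and 67.6, 61.4 and 63.3 CPM in LacZ (0.54 ± 0.07). The X-enriched kinase gene JIL-1 had 116, 109 and 114 CPM in Ime4_dMettl14, 159, 154 and 157 CPM in Nito and 115, 110.2 and 111 CPM in LacZ (−0.47 ± 0.04). The acetyltransferase gene mof had 35.5 ± 1.20 CPM in Ime4_dMettl14, 41.6 ± 4.01 CPM in Nito and 39.8 ± 0.736 CPM in LacZ (−0.23 ± 0.06). The limiting subunit gene msl-2 had 58.1 ± 4.60 CPM in Ime4_dMettl14, 58.2 ± 1.38 CPM in Nito and 56.8 ± 4.06 CPM in LacZ, and its difference was not called (−0.00 ± 0.06, adjusted p = 0.948 by edgeR). The part of these genes in the shift of the X was not tested. In the sex determination list 2 of 9 were higher and 5 lower, and the 2 became 1 without Ime4_dMettl14 replicate 2 or 3 or Nito replicate 2 or 3. The lower ones include tra, transformer, with 21.9 ± 0.955 CPM in Ime4_dMettl14, 28.4 ± 0.498 CPM in Nito and 20.9 ± 1.72 CPM in LacZ (−0.37 ± 0.07). Sxl, the switch gene upstream of both systems, had 6.17 ± 0.841 CPM in Ime4_dMettl14, 7.44 ± 0.783 CPM in Nito and 9.19 ± 1.15 CPM in LacZ (−0.27 ± 0.16, adjusted p = 0.16 by edgeR) and was not called.

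Differences also followed transcript length, here with all genes divided by exonic length into 4 classes of near equal size. In the shortest class, 66 to 1253 bases, 34.0% were higher and 19.2% lower in Ime4_dMettl14 (median 0.06). In the longest class, 3486 to 71820 bases, 24.8% were higher and 45.1% lower (median −0.10). The 2 classes between had medians of 0.02 and −0.01. Within each class the X-linked median was below the autosomal one, at −0.05 against 0.07 in the shortest and −0.25 against −0.06 in the longest. The X shift was thus present at every length, and the length trend on both kinds of chromosome. Median exonic length was 2055 bases over all genes and longer in several lists that leaned lower. It was 3962 for Notch (16.7% higher, 44.4% lower) and 4800 for insulin and TOR (18.75% higher, 43.75% lower). For JAK/STAT it was 4189, for Spen and Wingless 4507, for ecdysone 6211 and for axon guidance 6556. The basement membrane list, at 5134, leaned higher. The part of length in the list counts was not tested.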

How the data were processed

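Per the labels' protocols, RNA of S2R+ cells was extracted with Trizol, selected for poly(A) and turned into strand-specific libraries. The authors deposited raw read counts per gene ID, not normalized, in 1 file per library. The submitters' processing notes name the assembly BDGP6, the aligner STAR 2.5.1b and the counter featureCounts 1.5.1, while the handling of strand, overlapping genes and multiply mapped reads is not stated there. The Ensembl annotation of that assembly gave positions, and mostly symbols, for 17253 of 17559 IDs. IDs without a symbol, 4.71% to 4.99% of counts, stayed in the fit and are not described.

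Libraries were grouped by their treatment label. Replicates differed by more than sampling noise (chi-square per degree of freedom 2.33 to 7.19 in the 2 knockdowns) and were all kept. In R 4.3.3, edgeR 4.0.16 fitted all 18 libraries with 1 coefficient for each of 6 groups (filterByExpr, TMM, robust quasi-likelihood, common biological coefficient of variation 0.0432). The Benjamini-Hochberg adjustment ran over 8146 genes, and adjusted p under 0.05 counted as called. The SE is the size of the log2 fold change divided by the square root of F. Errors after CPM are SD over 3 libraries. A positive fold change is higher in Ime4_dMettl14. Single values were compared by an exact permutation test over libraries (scipy 1.17.1).

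Named genes are the m6A genes, the 12 highest and 12 lowest called genes at an average log2 CPM of at least 3 with no overlap between the knockdowns, the 6 per direction with the largest CPM difference, up to 6 per direction under 1 CPM in one group, up to 3 called genes per direction of each list and up to 4 per class of the LacZ position. Not all of them are given. Genes whose call was lost when a library was left out are not given as called, except Flacc. The members of the comparison, the 41 lists and the rule were chosen with earlier results of these data known. 35 list entries were not matched to an ID, and 2 that matched the wrong gene were removed after the match was seen. The unmatched ones include InR, Tor and S6k (insulin and TOR), wg (Wingless), Dl and Psn (Notch) and br (ecdysone). These lists thus lack central members. On simulated counts for Ime4_dMettl14 over Nito (8040 genes), 78% of simulated 1.25-fold changes were found, 86% of those of 1.5-fold, 96% of those of 2-fold and 98% of those of 4-fold. Of the 182 calls 3 were false, and a simulation without any change gave 0 calls. Alternatives were other scalings, DESeq2 1.42.0, other filters, a replicate block, glmTreat, a fit of the 6 libraries alone and each library left out.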

Additional observations from a re-analysis of the deposited data

How the results depend on the processing

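The count of 5084 called genes (2533 higher and 2551 lower in Ime4_dMettl14) ranged from 4502 to 5220 over the other scalings, filters, tests and library sets, other than the test against a 1.5-fold difference, and 0 shared calls changed sign under any of them. DESeq2 called 4632, of which 4521 are among the 5084. Tested against a 1.5-fold difference (glmTreat), 566 genes passed, 278 higher and 288 lower, a stricter question. The count of 1199 genes over 1.5-fold fell to 654 when only genes above 5 CPM in at least 3 libraries entered, which tests 6736 genes and drops low ones, and was 1429 with no filter. The excess of lower over higher genes past 1.5-fold (501 higher, 698 lower) turned to 353 higher and 301 lower with that filter. Leaving out 1 library at a time gave 4664 to 4810 called genes, 2337 to 2499 higher, 2243 to 2364 lower and 1141 to 1226 over 1.5-fold. With the replicate number as a block 5082 genes were called (2538 higher, 2544 lower, 1195 over 1.5-fold). Same-numbered libraries of the 2 knockdowns correlated at 0.022, 0.113 and 0.055 in their deviations from the group means, so the numbers are not taken to pair them. Not every library correlated best with its own number, since Nito replicate 1 stood at 0.0243 with Ime4_dMettl14 replicate 3. The X median stayed between −0.16 and −0.12. Small differences in low transcripts may be missed at this depth. Of simulated 1.5-fold changes 86% were found over genes of all levels, and recovery in low transcripts was not examined apart. The simulation changed far fewer genes than were called in the data, so its shares may not carry over.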

Other observations

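Some long noncoding RNAs that carry microRNA hairpins in their exons were far lower in Ime4_dMettl14 than in Nito. This group was picked after the values were seen and is given as values. Of 40 tested genes whose exons hold an annotated microRNA on the same strand, 6 were higher and 19 lower, against 31.1% higher and 31.3% lower of all genes tested, with a median log2 fold change of −0.22 and a range of −4.62 to 0.71. The gene with the largest difference of all tested, lncRNA:CR43626, is the host of mir-282. lncRNA:CR43651, the host of mir-14, had 0.464, 0.961 and 0.552 CPM in Ime4_dMettl14, 6.32, 7.45 and 6.25 CPM in Nito and 0.286, 0.571 and 0.43 CPM in LacZ (log2 fold change −3.34 ± 0.22 SE). lncRNA:CR31044, which was described among the lowest genes, is the host of mir-279 and mir-996. For lncRNA:CR43650, the host of mir-8, the log2 fold change was −1.87, for lncRNA:CR43857, the host of mir-275, −0.92, and for lncRNA:CR44206, the host of mir-184, −0.77. Of all 308 long noncoding RNAs tested, 12.3% were higher and 35.4% lower. Among the 10 hosts that are long noncoding RNAs, 9 were lower and 1 was not called. The others are lncRNA:Hsromega, given above, lncRNA:CR43459 (−0.41), lncRNA:mimi (−0.40) and the uncalled lncRNA:CR46006 (−0.20). The Nito mean was the highest of the 3 groups in all 10. Several of them averaged near or under 1 CPM outside Nito and can have passed the filter through it. The pasha transcript, whose product helps to cut such hairpins, was also highest in Nito. Mature microRNAs were not measured in these libraries, and the part of hairpin processing in these differences was not tested.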
